A study of Mus musculus with 7 samples.

Results

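The Notch signalling genes described here are 10 genes chosen by symbol: the receptors Notch1, Notch2, Notch3 and Notch4, the ligands Jag1, Jag2 and Dll1, the target genes Hes1 and Hes5, and the inhibitor Numb. All 10 were found among the 32531 gene symbols of each table, and all 10 passed the filter on low counts. Tissue next to the ventricles was dissected from adult mice of the line Dcdc2a-TRAP ES2575 and its RNA was sequenced. The mice carry a transgene for Rpl10a, a ribosomal protein, fused to EGFP and driven by Dcdc2a, so tagged ribosomes form in cells in which that driver is active. The immunopurified libraries (IP, numbers 1, 3 and 4) hold RNA recovered by capturing tagged ribosomes with antibodies to EGFP. The Input libraries (numbers 1 to 4) hold total RNA of mice of the same line. Both groups carry the transgene, no other allele or agent is labelled, and an IP of a mouse without the tag was not analysed here. How many animals went into a library is not labelled, so p-values measure the spread between these libraries, which may be technical.

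Notch receptors sit in the membrane and are activated when a ligand of the Jagged or Delta type on a neighbouring cell pulls on them. Proteases then release the intracellular part, which enters the nucleus, joins the DNA-binding protein RBPJ and a Mastermind coactivator, and switches on targets such as the repressors of the Hes and Hey families. Numb lowers Notch activity by sending receptors into the endocytic route. In the wall of the ventricles Notch activity is known for holding neural stem cells in an undifferentiated state, Notch3 is known for its role in the mural cells of vessels, and Notch4 for its expression in endothelial cells.

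The promoters below are those of the pair of receptor genes that passed the test and of Hes5, a textbook target of Notch whose log2 fold between the groups was near 0. They run 5′ to 3′ on the strand of the gene, from 250 bases before to 50 bases after the RefSeq start site (build GRCm38.p6). Capitals mark the core of the RBPJ motif, TGGGAA or its complement TTCCCA.
Notch1, chr2:26503773-26504072, minus strand: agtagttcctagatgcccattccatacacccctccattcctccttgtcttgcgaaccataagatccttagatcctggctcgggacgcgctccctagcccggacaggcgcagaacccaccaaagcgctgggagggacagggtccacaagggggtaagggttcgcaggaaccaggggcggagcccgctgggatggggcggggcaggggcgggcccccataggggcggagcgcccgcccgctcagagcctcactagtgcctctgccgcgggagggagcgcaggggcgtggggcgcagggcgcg
Notch2, chr3:98013288-98013587, plus strand: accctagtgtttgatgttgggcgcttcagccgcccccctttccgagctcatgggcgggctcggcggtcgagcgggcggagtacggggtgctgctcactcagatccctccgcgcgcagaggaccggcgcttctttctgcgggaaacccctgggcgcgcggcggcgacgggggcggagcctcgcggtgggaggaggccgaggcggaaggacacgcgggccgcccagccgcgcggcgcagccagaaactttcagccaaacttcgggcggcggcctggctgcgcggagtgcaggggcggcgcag
Hes5, chr4:154960673-154960972, plus strand: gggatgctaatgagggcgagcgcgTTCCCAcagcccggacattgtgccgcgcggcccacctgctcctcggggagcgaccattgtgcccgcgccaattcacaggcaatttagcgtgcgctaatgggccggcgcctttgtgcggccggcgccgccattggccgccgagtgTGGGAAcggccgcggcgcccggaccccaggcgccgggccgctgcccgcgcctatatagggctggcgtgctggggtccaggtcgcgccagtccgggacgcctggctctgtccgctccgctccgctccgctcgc
The Hes5 window held 2 matches to the core, starting 226 bases (minus strand) and 82 bases (plus strand) before the start site. Both were also matches to the longer form GTGGGAA, which contains the core. The Notch1 and Notch2 windows held no match to these letters. RefSeq promoters were found for 9 members (not Hes1), 12 windows in all, and of these 12 only the Hes5 window held the core on either strand. For comparison, the core was present in 25.6% and the longer form in 6.38% of 32851 mouse promoter windows of the same length (300 bases).

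Assigned counts ranged from 42422439 to 52175180 in IP and from 37203427 to 44754345 in Input. Foxj1, the transcription factor of motile cilia, had 32.2, 345 and 427 CPM (counts-per-million) in IP 1, IP 3 and IP 4, against 4.34 to 13.0 CPM in the Inputs. CPM values here are scaled with TMM, edgeR's correction for library composition. Dcdc2a, which drives the tag, had 43.6, 411 and 175 CPM in these IP libraries, against 27.7 to 73.9 CPM in the Inputs. Markers of ependymal cells, the ciliated lining of the ventricles, were present: 11 of 12 were higher in IP (11 without IP 1, 7 with the replicate number as a block), and their summed level was 238, 2865 and 2511 CPM in IP 1, IP 3 and IP 4, against 38.1 to 58.0 CPM in Input. IP 1 thus stood apart from IP 3 and IP 4, and results are also given without it. The share of all tested genes higher in IP was 3.64% (12.5% without IP 1, 0.553% with the block). Reads aligned to several places took 19.8%, 29.6% and 39.3% of the summed counts in IP 1, IP 3 and IP 4, and 20.9% to 21.2% in Input. Reads in no counted feature took 18.4%, 8.8% and 8.1% in the same IP libraries, against 15.2% to 18.2% in Input. Reads in more than 1 gene took 1.51% to 2.01% in IP and 9.33% to 12.9% in Input. These last ranges did not overlap, and the effect of this difference on the folds was not tested.

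Of the 10 members 2 were higher in IP and 0 lower (edgeR's quasi-likelihood test, Benjamini-Hochberg adjusted p under 0.05 over all 17375 genes tested). Over all tested genes 3.64% were called higher and 2.16% lower. With no adjustment, 4 members had a p under 0.05 and were higher in IP and 0 were lower, beside 13.3% and 9.4% of all tested genes (22.7% in either direction). DESeq2 called 3 members higher and 0 lower, beside 8.03% and 5.54% of all tested genes. Without IP 1, edgeR called 3 members higher and 0 lower, beside 12.5% and 9.55%. With the replicate number as a block it called 0, beside 0.553% and 0.19%. The 2 calls were those of the receptors Notch1 and Notch2. The median log2 fold of the 10 members was 1.08, beside 0.06 over all tested genes (1.23 and -0.04 without IP 1), and 9 of the 10 had a positive fold, beside 53.1% of all tested genes. In 3 members every IP library lay above every Input, a pattern that 9.55% of all tested genes had, and in 0 members every IP lay below every Input, a pattern of 10.4% of all tested genes. The members were chosen with earlier results of these data known, so these comparisons with all genes are descriptive only. These are bulk samples, so numbers of cells of a type and RNA per cell cannot be told apart. The folds compare RNA of captured ribosomes with total RNA. RNA level in tagged cells, ribosome binding and RNA carried over from untagged cells thus cannot be told apart either.

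**Figure D1:**
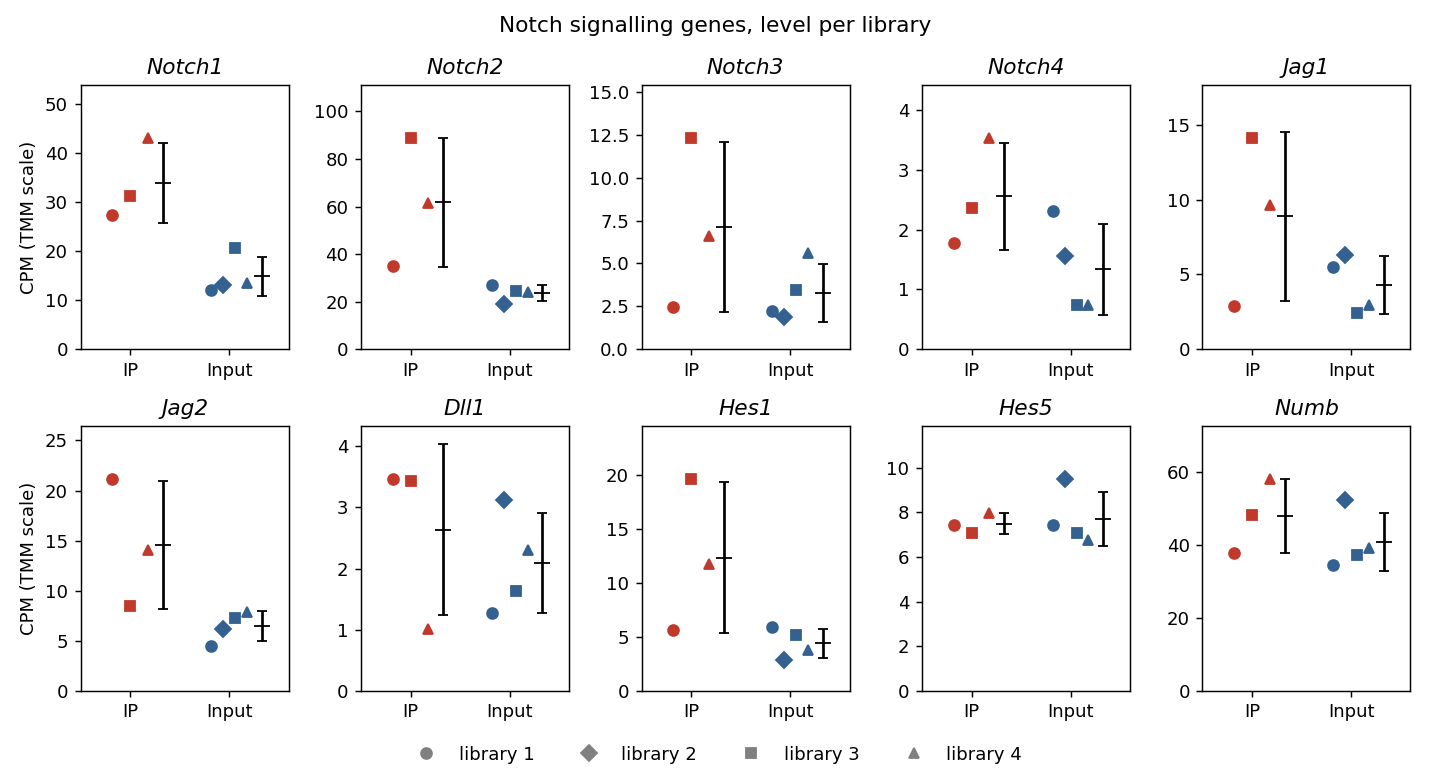
Level of each gene (y axis, CPM on the TMM scale, from 0) in the IP (red) and Input (blue) libraries, 1 point per library with the shape giving its number; black bars show mean ± SD (n = 3 IP, n = 4 Input). All IP points of Notch1, Notch2 and Jag2 lie above every Input point, while those of Hes5 lie between 7.07 and 7.98 CPM, inside the Input range of 6.78 to 9.50 CPM.

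Notch1 (ENSMUSG00000026923.15, chromosome 2, 26457903 to 26516663, minus strand), a receptor used in many tissues and in neural stem cells, had 27.4, 31.3 and 43.0 CPM in IP 1, IP 3 and IP 4, against 12.02, 13.01, 20.7 and 13.6 CPM in Inputs 1 to 4. All 3 IP libraries were above every Input, with IP 4 the highest and Input 3 the highest of the Inputs. The gene rose to a mean of 33.9 ± 8.14 CPM in IP (SD, n = 3), against 14.8 ± 3.98 CPM in Input (SD, n = 4), which is a log2 fold of 1.19 with an SE of 0.30 (edgeR adjusted p = 0.0464). With the replicate number as a block Notch1 did not pass, at a log2 fold of 1.15 (edgeR adjusted p = 0.190). The call was also lost without IP 3 (edgeR adjusted p = 0.0701), without IP 4 (0.178) and without a filter on low counts (0.0513). So it was without Input 1, 2, 3 or 4 (edgeR adjusted p = 0.134, 0.129, 0.0742 and 0.128). The log2 fold was 1.24 without IP 3, 0.98 without IP 4, and 1.10, 1.13, 1.39 and 1.15 without Input 1 to 4. Over all tested genes, 10 were higher without IP 4 and 21, 12, 4 and 4 without Input 1 to 4. Without IP 3 the number was 343, and with all libraries 633. Without IP 1 the Notch1 call held (log2 fold 1.32, edgeR adjusted p = 0.00584).

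Notch2 (ENSMUSG00000027878.11, chromosome 3, 98013527 to 98150361, plus strand), the receptor with the highest level per length in every library, had 34.96, 88.9 and 61.3 CPM in IP 1, IP 3 and IP 4, against 27.2, 19.1, 24.5 and 23.9 CPM in Inputs 1 to 4. Every IP was above every Input, but IP 1 was close to the highest Input. Its mean was 61.7 ± 27.0 CPM in IP (SD, n = 3), against 23.7 ± 3.37 CPM in Input (SD, n = 4). The log2 fold was 1.38 ± 0.31 (SE, edgeR adjusted p = 0.0341). The block ended this call too (log2 fold 1.20, edgeR adjusted p = 0.182). Leaving out IP 3 (edgeR adjusted p = 0.0874), IP 4 (0.105) or Input 1, 2, 3 or 4 (0.0879, 0.104, 0.105 and 0.0994) did so as well. The log2 fold was 1.02 without IP 3, 1.39 without IP 4, and 1.45, 1.29, 1.40 and 1.39 without Input 1 to 4. As stated for Notch1, few genes were called over the genome without IP 4 or an Input. Without IP 1 the log2 fold of Notch2 was 1.66 (edgeR adjusted p = 0.000165). Within the lanes the ratios of Notch1 and Notch2 were ordered differently: the log2 ratio of IP 1, IP 3 and IP 4 to the Input on the same lane was 1.19, 0.59 and 1.66 for Notch1, and 0.36, 1.86 and 1.35 for Notch2.

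Notch3 (ENSMUSG00000038146.8, chromosome 17, 32120820 to 32166852, minus strand), the receptor of mural cells, had 2.46, 12.3 and 6.61 CPM in IP 1, IP 3 and IP 4, against 2.23, 1.90, 3.47 and 5.62 CPM in Inputs 1 to 4. IP 3 and IP 4 were above every Input and IP 1 lay inside the Input range. The log2 fold was 1.11 ± 0.64 (SE, edgeR adjusted p = 0.347), with a 95% interval of -0.32 to 2.53, and 1.51 without IP 1 (edgeR adjusted p = 0.0769). It was 0.45 without IP 3 (edgeR adjusted p = 0.786) and 0.72 with the block (edgeR adjusted p = 0.634). Of 11 mural cell markers 3 were higher in IP and 0 lower (8 and 0 without IP 1, 9 and 0 by DESeq2, 0 and 0 with the block), and their summed level was 67.9, 870 and 379 CPM in IP 1, IP 3 and IP 4, against 32.7 to 55.6 CPM in Input. Of the mural markers, Kcnj8 and Higd1b had a count of 0 in an Input. Of 6 fibroblast markers 5 were higher and 0 lower (6 and 0 without IP 1, 1 and 0 with the block), with summed levels of 58.9, 651 and 368 CPM in the same libraries, against 13.9 to 47.6 CPM in Input, and none at 0. Beside these counts, 3.64% of all tested genes were higher and 2.16% lower. The shares were 12.5% and 9.55% without IP 1, 8.03% and 5.54% by DESeq2, and 0.553% and 0.19% with the block. The part of mural cells and fibroblasts in the Notch receptor levels was not tested.

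Notch4 (ENSMUSG00000015468.14, chromosome 17, 34564268 to 34588503, plus strand), the endothelial receptor, had the lowest mean level per length of the 4 receptors in either group. It had 89, 107 and 181 counts in IP 1, IP 3 and IP 4, against 94, 70, 27 and 30 counts in Inputs 1 to 4. On the CPM scale these were 1.78, 2.36 and 3.53 CPM in IP, against 2.31, 1.56, 0.737 and 0.737 CPM in Input. Input 1 was above IP 1, so the groups overlapped, and the log2 fold of 0.93 ± 0.79 did not pass (SE, edgeR adjusted p = 0.542, 95% interval -0.82 to 2.69). The 12 endothelial markers had a summed level of 19.1 to 29.9 CPM in IP, against 20.5 to 29.6 CPM in Input, with 1 of the 11 tested higher and 0 lower (0 and 0 with the block), and Tie1 at a count of 0 in IP 4 and in Inputs. Of all tested genes, 3.64% were higher and 2.16% lower (0.553% and 0.19% with the block).

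**Figure D2:**
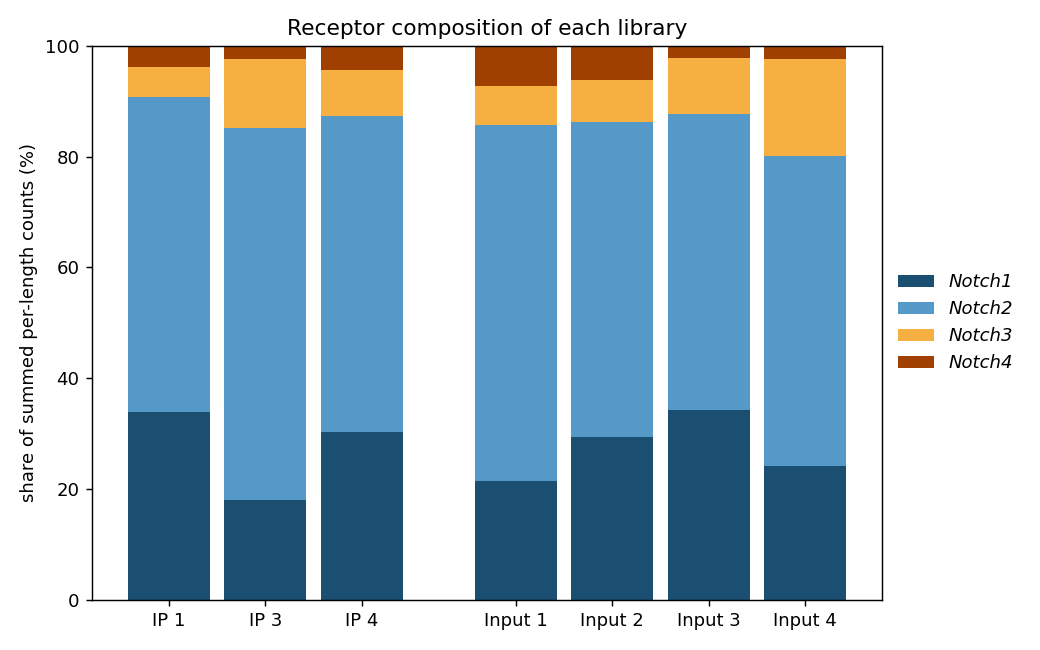
Share of each receptor (y axis, percent) in the summed counts per exon length of Notch1 to Notch4, 1 stacked bar per library, IP at left and Input at right. Notch2 holds 56.9% to 67.3% of each IP bar and 53.5% to 64.2% of each Input bar.

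A library's receptor composition does not depend on how libraries are scaled. Counts per length of exon sequence were summed over the 4 receptors, and each receptor's share was taken. Notch2 held a mean of 60.4 ± 5.92% in IP, against 57.6 ± 4.59% in Input (SD, n = 3 and 4), and Notch1 held 27.4 ± 8.35% in IP and 27.3 ± 5.67% in Input. Notch3 held 8.66 ± 3.56% in IP and 10.6 ± 4.85% in Input, and Notch4 held 3.55 ± 1.04% in IP and 4.50 ± 2.65% in Input. The differences, IP minus Input, were 0.05, 2.79, -1.90 and -0.94 percentage points for Notch1 to Notch4. In a two-sided exact permutation test the adjusted p was 1 for Notch1 and 0.990 for each of the others. The smallest p this design allows is 0.0571, so no difference could pass at 0.05 and the test cannot decide. The composition varied within both groups. IP 3 had 17.9% Notch1 and 67.3% Notch2, while IP 1 had 33.8% and 56.9%, and IP 4 had 30.4% and 57.1%. Among the Inputs, Notch1 ranged from 21.5% in Input 1 to 34.3% in Input 3, and Notch2 from 53.5% in Input 3 to 64.2% in Input 1. Within the lanes the Notch1 share differed from that of the Input by 12.3, -16.3 and 6.23 points in IP 1, IP 3 and IP 4, so its direction was not shared by the pairs.

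Among the ligands, Jag2 (ENSMUSG00000002799.6, chromosome 12, 112907819 to 112929776, minus strand), a Jagged-type ligand, had 21.1, 8.46 and 14.1 CPM in IP 1, IP 3 and IP 4, against 4.44, 6.17, 7.26 and 7.88 CPM in Inputs 1 to 4. All IP libraries were above every Input, and IP 1 was the highest of them, unlike for the ependymal markers. The log2 fold of 1.18 ± 0.41 did not pass over all genes (SE, edgeR adjusted p = 0.125), and it was 0.80 without IP 1 (edgeR adjusted p = 0.221).

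Jag1 (ENSMUSG00000027276.7, chromosome 2, 137081456 to 137116644, minus strand), the other Jagged-type ligand, had 2.88, 14.1 and 9.64 CPM in IP 1, IP 3 and IP 4, against 5.49, 6.33, 2.40 and 2.97 CPM in Inputs 1 to 4. IP 3 and IP 4 were above every Input and IP 1 was below Inputs 1, 2 and 4. Its log2 fold was 1.05 ± 0.60 (SE, edgeR adjusted p = 0.343), 1.46 without IP 1 (edgeR adjusted p = 0.0525) and 0.54 without IP 3 (edgeR adjusted p = 0.716). The Jagged pair was thus ordered oppositely in the IP libraries, with log2 ratios to the Input of the same lane of 2.24, 0.22 and 0.83 for Jag2 in IP 1, IP 3 and IP 4, and of -0.92, 2.53 and 1.68 for Jag1. Whether the ligands differ in their change was not tested.

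Dll1 (ENSMUSG00000014773.13, chromosome 17, 15367354 to 15376872, minus strand), a Delta-type ligand, had 3.46, 3.44 and 1.01 CPM in IP 1, IP 3 and IP 4, against 1.28, 3.13, 1.64 and 2.31 CPM in Inputs 1 to 4. IP 1 and IP 3 were above every Input and IP 4 below every Input. The log2 fold of 0.34 ± 0.74 did not pass (SE, edgeR adjusted p = 0.844), and its 95% interval of -1.31 to 1.98 was wide. It was 0.089 without IP 1, 0.080 without IP 3 and 0.72 without IP 4 (edgeR adjusted p = 0.962, 0.973 and 0.674), and 0.15 without Input 1 and 0.60 without Input 2 (0.946 and 0.762). Within the lanes its log2 ratio was 1.41, 1.05 and -1.15 in IP 1, IP 3 and IP 4.

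**Figure D3:**
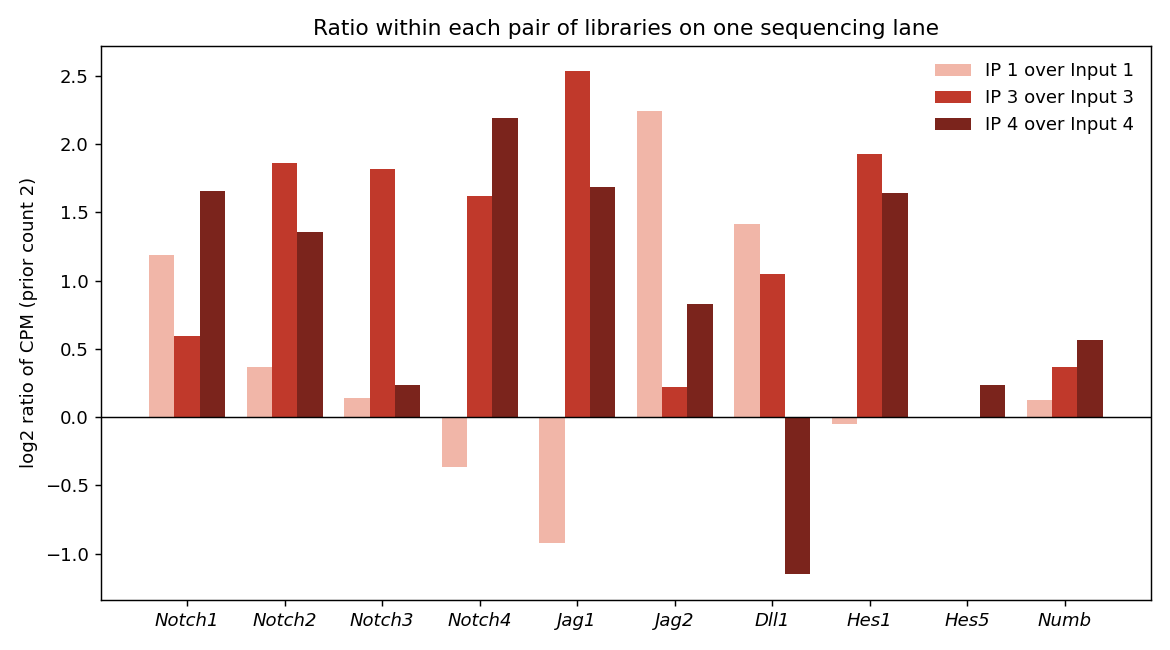
Log2 ratio of each IP library to the Input on the same sequencing lane (y axis, CPM with a prior count of 2) for each gene (x axis), with bars for the pairs numbered 1, 3 and 4. Notch1, Notch2, Notch3, Jag2 and Numb have positive ratios in all 3 pairs, and Jag1 and Jag2 show opposite orders over the pairs.

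The target genes differed from each other in level and fold. Hes1 (ENSMUSG00000022528.8, chromosome 16, 30064384 to 30067796, plus strand), a repressor that Notch induces in stem cells, had 5.65, 19.6 and 11.7 CPM in IP 1, IP 3 and IP 4, against 5.86, 2.86, 5.13 and 3.73 CPM in Inputs 1 to 4. IP 3 and IP 4 were above every Input, and IP 1 was just under Input 1. The log2 fold of 1.49 ± 0.50 was the largest of the 10 and did not pass (SE, edgeR adjusted p = 0.110). It passed by DESeq2 (adjusted p = 0.0373) and without IP 1 (log2 fold 1.83, edgeR adjusted p = 0.00906), and did not with the replicate block (1.19, edgeR adjusted p = 0.372). Without IP 3 the log2 fold was 0.98 (edgeR adjusted p = 0.344).

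Hes5 (ENSMUSG00000048001.7, chromosome 4, 154960923 to 154962371, plus strand), the repressor whose promoter is shown above with its RBPJ matches, had 7.45, 7.07 and 7.98 CPM in IP 1, IP 3 and IP 4, against 7.46, 9.50, 7.10 and 6.78 CPM in Inputs 1 to 4. The groups overlapped throughout and the IP libraries lay within 1 CPM of each other. The log2 fold was -0.04 ± 0.37 (SE, edgeR adjusted p = 0.964), with a 95% interval of -0.86 to 0.78. Its sign turned with total counts as the scaling, with the block and without Input 2. Against the Input of the same lane its log2 ratio was -0.001, -0.01 and 0.23 in IP 1, IP 3 and IP 4, beside -0.05, 1.92 and 1.64 for Hes1. Of 10 astrocyte markers 2 were higher and 0 lower (5 and 1 without IP 1, 0 and 0 with the block), with summed levels of 2411 to 3239 CPM in IP, against 3125 to 3384 CPM in Input. Of 9 markers of stem cells and young neurons 0 were higher and 1 lower (1 and 2 without IP 1), with summed levels of 134 to 151 CPM in IP, against 174 to 209 CPM in Input. For comparison, 3.64% of all tested genes were higher and 2.16% lower (12.5% and 9.55% without IP 1). No marker of either list was at 0, and their part in the Hes levels was not tested.

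Numb (ENSMUSG00000021224.15, chromosome 12, 83794034 to 83921934, minus strand), the inhibitor, had 37.8, 48.1 and 58.0 CPM in IP 1, IP 3 and IP 4, against 34.6, 52.4, 37.3 and 39.2 CPM in Inputs 1 to 4. Only IP 4 was above every Input. The log2 fold was 0.23 ± 0.25 (SE, edgeR adjusted p = 0.645), with a 95% interval of -0.32 to 0.78. It was 0.38 without IP 1 (edgeR adjusted p = 0.284), 0.072 without IP 4 (0.927), 0.15 without Input 1 (0.830) and 0.37 without Input 2 (0.498), and 0.35 with the block (0.561). For Notch4 and Hes5 the log2 folds without IP 1 were 1.14 and -0.037 (edgeR adjusted p = 0.416 and 0.967).

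**Figure D4:**
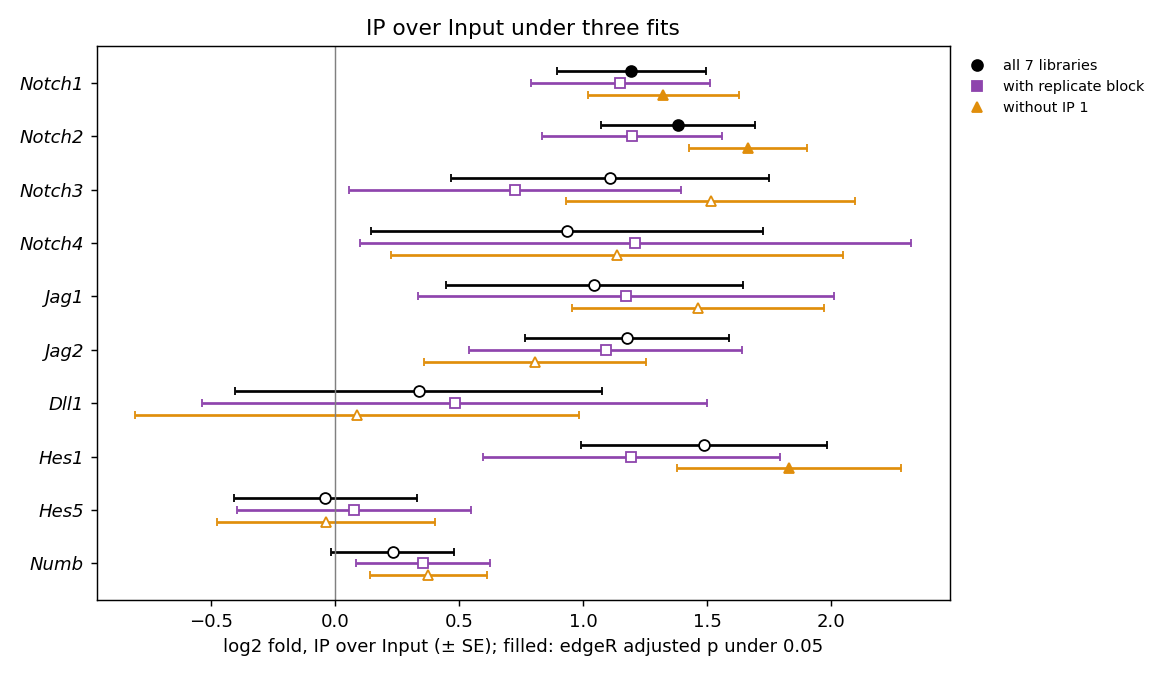
Log2 fold of IP over Input (x axis, ± SE) for each gene from all 7 libraries, with the replicate number as a block, and without IP 1; filled symbols mark an edgeR adjusted p under 0.05. Notch1 and Notch2 are filled with all libraries and without IP 1, Hes1 only without IP 1, and no gene with the block.

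Levels of different genes were compared per length, as CPM per kilobase of exon sequence. In IP the order was Numb (12.2 ± 2.59 CPM per kilobase, SD, n = 3), Hes1 (6.05 ± 3.43), Notch2 (5.72 ± 2.50), Hes5 (5.50 ± 0.33), Notch1 (2.38 ± 0.57), Jag2 (2.09 ± 0.91), Jag1 (1.52 ± 0.97), Notch3 (0.88 ± 0.61), Dll1 (0.63 ± 0.33) and Notch4 (0.32 ± 0.11). In Input it was Numb (10.4 ± 2.02 CPM per kilobase, SD, n = 4), Hes5 (5.66 ± 0.90), Notch2 (2.19 ± 0.31), Hes1 (2.16 ± 0.66), Notch1 (1.04 ± 0.28), Jag2 (0.92 ± 0.22), Jag1 (0.74 ± 0.33), Dll1 (0.49 ± 0.19), Notch3 (0.41 ± 0.21) and Notch4 (0.17 ± 0.09). The ranges of neighbours did not overlap between Numb and Hes1 and between Hes5 and Notch1 in IP, nor between Numb and Hes5 and between Hes5 and Notch2 in Input, and all other neighbours overlapped. Hes1 was thus below Hes5 in all 4 Inputs, and above it in IP 3 but not in IP 1 or IP 4. With the length of the longest transcript in place of all exon sequence, Notch2 changed places with Hes5 in IP and with Hes1 in Input, and the other ranks were unchanged.

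For each receptor the 3 genes with the most similar profile over the 7 libraries were found among 13318 named genes, by the root-mean-square difference of centred log2 CPM. Closest to Notch1 were Parp12, Ddx54 and Inppl1, at 0.18, 0.18 and 0.19 on the log2 scale. Closest to Notch2 were Etfa, Pcdhgb5 and Enkd1, at 0.10, 0.12 and 0.15. For Notch3 they were Snrpg, Hfe and Tsga10, at 0.14, 0.22 and 0.24, and for Notch4 Rbm19, Hgs and Pfkfb4, at 0.26, 0.27 and 0.28. The median difference over all genes compared was 0.82, 0.88, 1.02 and 0.91 for Notch1 to Notch4. The closest genes were picked as the smallest of 13318 differences over 7 libraries, so they lie below the median by selection. Their closeness is descriptive, and a link to the receptors was not tested. No receptor was among the closest 3 of another, a place that only 3 of 13318 genes can hold.

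**Figure D5:**
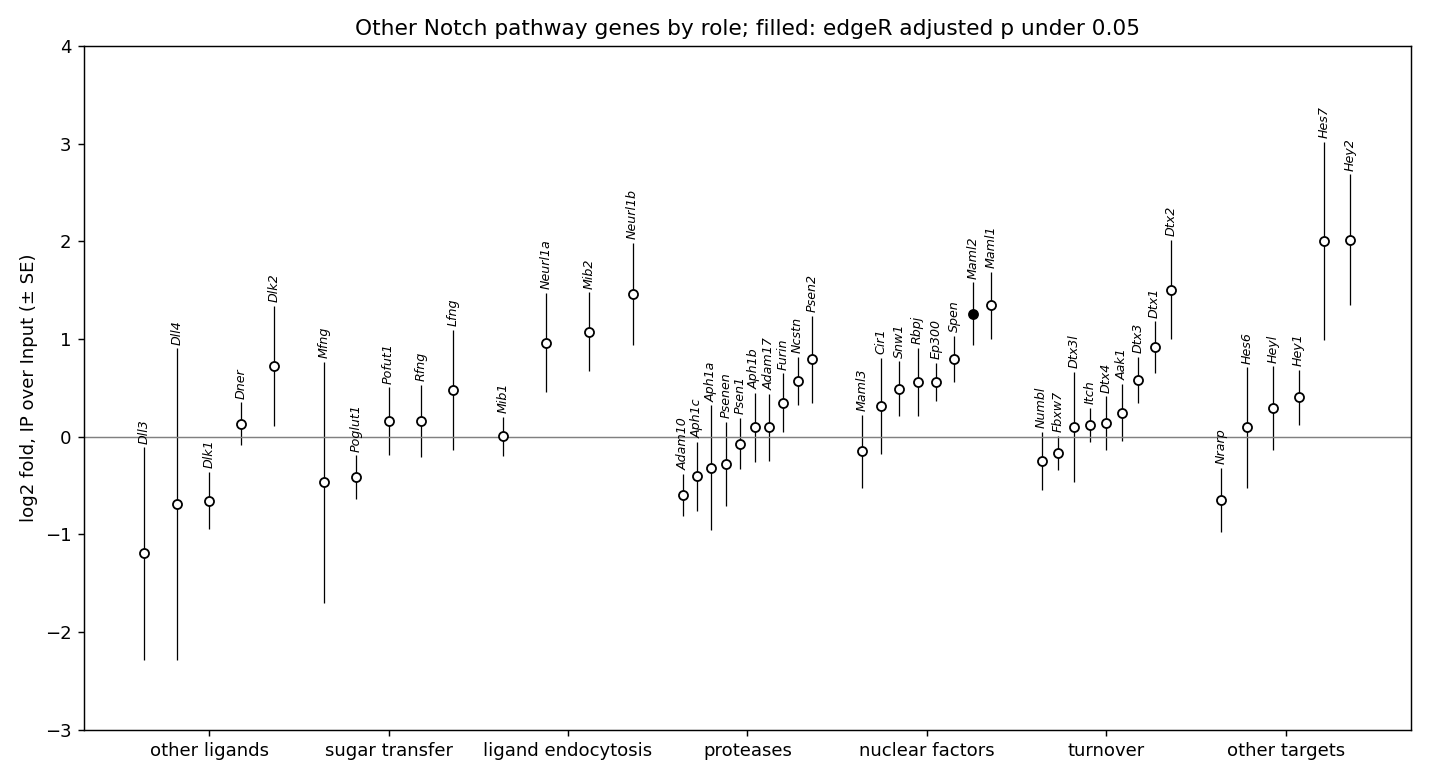
Log2 fold of IP over Input (y axis, ± SE) of 47 further genes of the pathway, grouped by role (x axis); filled symbols mark an edgeR adjusted p under 0.05. Maml2 at 1.26 is the single filled point, and the proteases spread on both sides of 0.

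Beyond the 10 genes, 49 further genes of the pathway were listed and 47 tested. Of these 1 was higher, 0 were lower and 46 did not pass, beside 3.64% and 2.16% of all tested genes called higher and lower. With no adjustment 11 had a p under 0.05 and were higher and 2 were lower, beside 13.3% and 9.4% of all tested genes. DESeq2 called 7 higher and 0 lower, beside 8.03% and 5.54%, and edgeR without IP 1 called 10 and 0, beside 12.5% and 9.55%. Their median log2 fold was 0.16, beside 0.06 over all tested genes (0.14 and -0.04 without IP 1). This list, too, was chosen with earlier results of these data known. The gene called was Maml2, a Mastermind coactivator of the released receptor, with 28.2, 73.3 and 60.0 CPM in IP 1, IP 3 and IP 4, against 18.1 to 25.1 CPM in Input. Every IP was above every Input, with IP 1 the closest to them. The log2 fold was 1.26 ± 0.32 (SE, edgeR adjusted p = 0.0483). It lost the call with the block (edgeR adjusted p = 0.219), with total counts as the scaling (0.0507) and without IP 3, IP 4 or any 1 Input (0.115 to 0.157). Its log2 fold was 0.96 to 1.31 in these leave-out fits, and few genes were called over the genome without IP 4 or an Input.

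By role, 1 of 8 nuclear factors was higher (median log2 fold 0.56), and in the other lists 0 genes were called in either direction. The lists were 5 further ligands (median -0.65), 5 enzymes that add sugars to the receptor (0.16), 4 factors of ligand endocytosis (1.02), 10 proteases and their subunits (0.01), 9 factors of receptor turnover (0.14) and 6 further targets tested (0.35). Without IP 1 the median was 0.16 for ligand endocytosis, -0.37 for the sugar enzymes, 0.16 for the proteases, 0.64 for the further targets, 0.73 for the nuclear factors, -0.53 for the ligands and 0.14 for turnover. The member with the smallest p in each list is given next. Neurl1b, a ubiquitin ligase that acts on ligands, had 235, 39.3 and 64.8 CPM in IP 1, IP 3 and IP 4, against 30.0 to 48.9 CPM in Input, so that IP 1 stood far above all others (log2 fold 1.46 ± 0.52 SE, edgeR adjusted p = 0.137). Without IP 1 its log2 fold was 0.34 (edgeR adjusted p = 0.392), and it passed by DESeq2 (adjusted p = 0.0338) and without IP 3 (1.85, edgeR adjusted p = 0.0399). Hey2, a repressor of the Hey family, had 3.46, 23.2 and 25.5 CPM in the same IP libraries, against 2.10 to 7.57 CPM in Input, with IP 1 inside the Input range (log2 fold 2.02 ± 0.67 SE, edgeR adjusted p = 0.107). Hey2 passed without IP 1 (edgeR adjusted p = 0.00139) and by DESeq2 (adjusted p = 0.0243). Dtx1, a Deltex ubiquitin ligase that binds Notch, reached 0.92 ± 0.27 on the log2 fold scale (SE, edgeR adjusted p = 0.0727), with every IP above every Input. It passed without IP 1 (log2 fold 1.02, edgeR adjusted p = 0.0134) and by DESeq2 (adjusted p = 0.0244), and not with the block (edgeR adjusted p = 0.219).

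Adam10, the protease that makes the first ligand-induced cut in the receptor, had 42.3, 35.7 and 50.8 CPM in IP 1, IP 3 and IP 4, against 57.4 to 70.0 CPM in Input. Every IP was below every Input, but the log2 fold of -0.59 ± 0.21 did not pass (SE, edgeR adjusted p = 0.133). Dlk1, a ligand-like protein without the Delta-type binding domain, stood at -0.65 ± 0.29 on the same scale (SE, edgeR adjusted p = 0.216), and Poglut1, which adds glucose to the receptor, at -0.41 ± 0.22 (SE, edgeR adjusted p = 0.309).

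Markers of the remaining cell types around the ventricle were also summed. Of 7 choroid plexus markers 0 were higher or lower, and 2 were higher without IP 1 (1326 to 3082 CPM in IP, against 2302 to 4166 CPM in Input). Of 7 oligodendrocyte markers 0 were higher and 2 lower, or 0 and 3 without IP 1 (2594 to 4268 CPM in IP, against 4192 to 5760 CPM in Input). Of 7 microglial and 6 neuronal markers 0 were higher or lower, with 80.6 to 143 CPM for microglia and 6608 to 7938 CPM for neurons in IP, against 72.2 to 118 CPM and 9307 to 11811 CPM in Input. Without IP 1, 2 neuronal markers were lower. Among all tested genes 3.64% were higher and 2.16% lower (12.5% and 9.55% without IP 1). No marker of these lists was at 0 in any library. RNA of these markers was thus present in IP, and the part of such cells in the IP levels of the members was not tested.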

How the data were processed

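The deposited tables, 1 for each library, list raw counts by gene symbol. The submitters' processing notes name STAR 2.0.0e, HTSeq and the build mm10. Settings, annotation and strand are not given in sources at hand. Lines that name no gene were left out, and they held 40.1% to 52.1% of the summed counts of a library. Where a gene overlaps another model its counts are uncertain: Notch1, Notch3, Dll1, Hes5 and Numb have antisense models over their exons, and Notch2 a model on the same strand. These models are not among the gene symbols counted, so whether their reads were added to the members is not known. Depth is given in the report. On assigned counts without TMM factors, 3 counts correspond to 0.0575 to 0.0806 CPM, counting error only.

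A filter on low counts (filterByExpr, minimum count 10, minimum total 15) left 17375 genes. With edgeR 4.0.16 (R 4.3.3) libraries were scaled with TMM factors and tested with edgeR's quasi-likelihood test (robust), IP against Input, group as the only term, p-values adjusted by Benjamini-Hochberg at 0.05 over all genes. The SE is the log2 fold over the root of the F statistic. The 95% intervals are not adjusted. CPM is on the TMM scale; lane ratios use log2 CPM with a prior count of 2. Exon lengths and positions are from GENCODE M21, on the assembly of mm10. Receptor shares were compared with an exact permutation test (scipy 1.17.1). Scripts were tested on simulated data.

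The members and lists were chosen with earlier results of these data known. Named genes are the members, Foxj1 and Dcdc2a, called pathway genes, the pathway gene with the smallest p in each list, and the 3 closest profiles per receptor (mean CPM of at least 1). The labels place the IP and Input of numbers 1, 3 and 4 on shared sequencing lanes (4, 2 and 3), which was taken as pairing; across genes, residuals of same-numbered libraries about the mean of their group correlated at 0.0318, 0.0426 and 0.0258. Alternatives were other scalings, no filter, DESeq2 1.42.0, the replicate block and leaving out each library.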

Additional observations from a re-analysis of the deposited data

How the results depend on the processing

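With the replicate block, 0 members and 0 further pathway genes were called. Over the genome 96 genes were higher and 33 lower, against 633 and 376 without it. There is no IP 2, so in the blocked fit Input 2 adds nothing to the comparison, which rests on the pairs numbered 1, 3 and 4. The block also adds terms to a fit of 7 libraries. The cause of the lower number of calls was not tested. With DESeq2 1396 genes were higher and 962 lower, and 7 further pathway genes were higher. Without a filter on low counts 1 member (Notch2) and 2 pathway genes (Maml1 and Maml2) were higher, beside 530 higher and 357 lower of 22709 genes tested. With DESeq2-type size factors in edgeR 2 pathway genes were higher, beside 636 higher and 395 lower of 17375 genes. With total counts as the scaling Maml1 was called in place of Maml2, beside 652 higher and 313 lower of 17375 genes. Leaving out 1 library at a time gave 4 to 2259 higher and 16 to 1724 lower genes, 0 to 3 members higher and 0 to 10 further pathway genes higher; the highest values of these ranges were without IP 1. Without IP 4, or without any 1 Input, 0 members and 0 further pathway genes were called. Few genes were called over the genome in these fits, so the zeros say little about the members. Without IP 4, 10 genes were higher and 19 lower of 17996 tested. Without Input 1, 2, 3 and 4, 21, 12, 4 and 4 were higher and 30, 24, 16 and 19 lower. Members called lower stayed at 0 in all 12 alternatives. Only Hes5 turned in sign among the members' folds, to 0.0004046 with total counts and 0.0759 with the block, with a range of -0.0992 to 0.0736 when libraries were left out (positive without Input 2). For the receptor shares, the Notch1 difference turned to -0.0278 points with the longest transcript and ranged from -3.18 to 4.76 with libraries left out. That of Notch2 ranged from -0.63 to 4.97 points, that of Notch3 from -3.78 to 0.43 and that of Notch4 from -1.72 to -0.01. No paired test of the shares was run. Notch4 in Input, at 27 to 94 counts, is the member most limited by depth.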
